A study of Homo sapiens with 3 samples.

Results

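The weaker CBFB-only peaks between genes were 3259 of the 27246 peaks that chromatin immunoprecipitation followed by sequencing (ChIP-seq) gave for CBFB. A CBFB peak was a member when its score was under 278, when it shared no base with any RUNX2 peak, and when its midpoint lay over 5 kb from every annotated transcription start site (TSS) and outside every annotated gene. Genes and TSSs were those of GENCODE release 44 placed on GRCh37 (hg19), and the rule covered chromosomes 1 to 22 and X, which held 27190 CBFB peaks. The members were therefore 11.99% of the CBFB peaks on these chromosomes. Score, overlap and position were used to select the members, so these values are given below as a description only.

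The peaks came from SAOS2 cells, which were derived from a human osteosarcoma and have no p53. The sample labels name no treatment of these cells. There were 3 samples, which were input DNA, a RUNX2 ChIP and a CBFB ChIP, each with 1 library. Peak lists of both ChIPs were analysed, with 9941 peaks for RUNX2, and the sequencing depth is unknown, since only peaks and scores are listed. With 1 library per antibody no p-value could be computed, and peaks are not replicates, so each share carries an exact Clopper-Pearson 95% interval and each difference of shares a Newcombe 95% interval, both of which cover counting error only. SAOS2 is a single tumour line, and the lists say nothing about other bone cells.

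Cells use CBFB as the shared subunit of complexes with any of the 3 RUNX proteins. CBFB does not bind DNA directly, and in these complexes the RUNX partner contacts the DNA with the Runt domain. The authors found more CBFB than RUNX2 peaks and presume that CBFB may also assist other transcription factors. Whether a RUNX protein was present at each member was not tested. RUNX2 is the family member that drives osteoblast formation, and RUNX1 and RUNX3 are best known from blood and epithelial cells. All 3 read the same short DNA word, TGTGGT, so the word cannot tell which RUNX protein was present. Sites between genes and far from a TSS are where enhancers are usually found, and enhancers often hold words for several factors, such as AP-1 (the FOS and JUN proteins) and TEAD proteins.

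The selected peaks had scores from 50.01 to 277.95, with a median of 86.2 and an interquartile range of 63.4 to 131. The deposited score was read as that of the peak caller MACS, where a higher score stands for a smaller p-value of the peak. The lowest scores lay at the floor of the CBFB list, which began at 50. The RUNX2 list also began at 50, so RUNX2 binding under that score would not be listed. CBFB-only thus means without an overlapping listed RUNX2 peak, and weaker RUNX2 binding at the members was not tested. The highest member, chr10:112304439-112305549, scored 277.95 and lay 22.4 kb upstream of SMC3, which encodes a cohesin subunit. The next member, chr5:43421843-43423045, scored 277.84 and lay 9.95 kb upstream of the chemokine gene CCL28. The other members of the top 5 scored 276.84, 276.58 and 276.54. The nearest protein-coding TSS was that of CHSY1 at 60 kb, PRKAA1 at 10.2 kb and GPC5 at 1428 kb, in this order. The 5 peaks that met the rest of the rule but were just above the score limit scored 278.04 to 278.77, and the lowest of these lay 17.8 kb upstream of NEK6. Only 152 CBFB-only peaks between genes had scores above the limit, so the limit left out few peaks of this kind.

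The members spanned 530 to 5649 bp, with a median width of 1044 bp, and together covered 3.79 Mb. The distance to the nearest TSS had a median of 22.1 kb and an interquartile range of 11.6 to 44.9 kb. The member farthest from a TSS, chr3:144736531-144737519, was 504 kb away. The nearest TSS was that of a long non-coding RNA gene for 34.9% of members, of a protein-coding gene for 26.9% and of a processed pseudogene for 20.4%. The median distance to a protein-coding TSS was 67.5 kb. At the inner edge of the rule, the closest member lay 5005 bp from the TSS of FXYD3, and the nearest peak left out lay 4995 bp from a TSS.

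To show what a RUNX word looked like in these peaks, the 6 highest-scoring members with the longer word TGTGGTT within 100 bp of the midpoint are given with 17 bases to either side. Each line was read from the GRCh37 reference, 5′ to 3′ on the strand that carries the word, and the capitals mark TGTGGTT.
chr5:43422380-43422420 (+), 9.95 kb upstream of CCL28: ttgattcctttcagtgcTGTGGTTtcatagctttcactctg
chr1:95564010-95564050 (+), 18.8 kb upstream of TLCD4: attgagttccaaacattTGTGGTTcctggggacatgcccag
chr9:91334525-91334565 (+), 185 kb downstream of the NXNL2 TSS: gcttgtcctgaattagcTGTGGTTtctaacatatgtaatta
chr3:187759169-187759209 (+), 112 kb upstream of LPP: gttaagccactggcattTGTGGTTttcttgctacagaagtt
chr6:35141601-35141641 (-), 25.2 kb upstream of TCP11: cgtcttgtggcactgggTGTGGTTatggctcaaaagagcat
chr4:33304039-33304079 (+), 2377 kb downstream of the PCDH7 TSS: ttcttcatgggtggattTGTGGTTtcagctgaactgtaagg
These 6 peaks scored from 266.47 to 277.84. The nearest RUNX2 peak was 18.1 kb away for the peak near TLCD4 and 242 kb away for the peak near NXNL2, with the other 4 in between.

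The 3 highest-scoring members that held both the RUNX core and the AP-1 word TGANTCA within 100 bp of the midpoint are given next. N stands for any base, so the word takes in TGATTCA as well as TGAGTCA, and these forms were not counted apart. The sequences are from GRCh37 on the strand of the RUNX core, with both words in capitals.
chr5:35884582-35884721 (-), 9.11 kb downstream of the nearest IL7R TSS: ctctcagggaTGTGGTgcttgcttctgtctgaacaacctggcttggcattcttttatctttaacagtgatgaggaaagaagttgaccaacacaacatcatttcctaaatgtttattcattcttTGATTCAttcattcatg
chr6:35141532-35141634 (-), 25.2 kb upstream of TCP11: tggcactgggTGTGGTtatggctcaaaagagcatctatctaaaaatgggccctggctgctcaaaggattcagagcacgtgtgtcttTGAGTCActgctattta
chr5:105712418-105712455 (-), 1012 kb downstream of the nearest EFNA5 TSS: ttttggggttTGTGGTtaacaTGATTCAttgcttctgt
The peak near TCP11 stood in both sets. The last of these peaks was 1139 kb from the nearest RUNX2 peak.

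The first question was whether the weaker CBFB-only peaks carried the RUNX word. The core TGTGGT, or its complement ACCACA, lay within 100 bp of the midpoint in 1581 of 3259 members, a share of 48.5% (exact 95% interval 46.8 to 50.2). Over all CBFB peaks on the same chromosomes the share was 41.7%. As a background from the same places, windows of the same 201 bp were taken 2 kb to either side of each member where they touched no peak of either list. These 6136 flanks held the core in 14.0% (13.2 to 14.9). The members exceeded their flanks by 34.5 percentage points (95% interval 32.6 to 36.4), a ratio of 3.46. The longer word TGTGGTT was found in 28.4% of members and 3.78% of flanks, a ratio of 7.51. The mean GC content was 46.2% in the members and 42.7% in the flanks, and with flanks weighted to the GC content of the members the difference in core share was 34.1 points.

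The core share of the members was close to that of peaks that RUNX2 shared. The 897 shared CBFB peaks between genes under the same score limit held it in 49.7%, and the members differed from them by -1.21 points (95% interval -4.90 to 2.48). The shared peaks had a median score of 159, against 86.2 in the members, and weighted to the scores of the members they left a difference of -0.50 points. Over the whole peak the difference was -2.75 points (-5.12 to -0.149), an interval without 0. The shared peaks were wider, with a median of 1142 bp against 1044 bp, and the part of width in this difference was not tested. The 5939 weaker CBFB-only peaks inside genes, whose median score was 86.0, held the core in 51.3%, a difference of -2.74 points for the members (-4.88 to -0.606). The interval of this small difference held 0 under several other settings. With scores under 100 it was -1.88 points (-4.64 to 0.874), and for TGTGGTT -1.07 points (-2.99 to 0.877). The 7943 weaker CBFB-only peaks within 5 kb of a TSS held the core in 32.4%, 16.1 points below the members. Their mean GC content was 54.8%, against 46.2% in the members, and its part in this difference was not tested. The 152 stronger CBFB-only peaks between genes held it in 36.8%, 11.7 points below the members (3.58 to 19.1). Their median width was 1468.5 bp, against 1044 bp in the members, and the part of width in this difference was not tested.

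The bases beside the core also differed from the flanks. The base after TGTGGT was T at 49.1% of 2079 cores in member windows and at 24.7% of 928 cores in flanks, a difference of 24.4 points (20.8 to 27.8). A G followed the core at 15.8% in members and at 40.2% in flanks. A G came before the core at 15.3% in members and at 29.3% in flanks. The same bases were found around the cores of shared peaks, where T followed at 48.6% and G at 14.6%.

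Among all 2080 possible words of 6 bases, counted with their complements, 11 words (0.529%) reached a ratio of at least 2 over the flanks and a share of at least 5% of members. The highest ratio among these was that of GCGGTT, which was in 5.37% of members and 0.929% of flanks, a ratio of 5.78. TGCGGT followed at 4.19, CTGCGG at 4.02 and GTGGTT at 4.02, ahead of TGTGGT itself at 3.46. The ratio was 3.15 for GTGGTC, then 2.87 for TTGTGG, 2.62 for CTGTGG and 2.23 for both TGTGGC and the word TGGTTT. The words with the 3 highest ratios share most of their letters with TGCGGT, a known second form of the RUNX word, and either TGTGGT or the form TGCGGT was in 53.7% of members and 15.5% of flanks. These words overlap each other, so they are not 11 separate signals.

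Of the other factors' words, those of AP-1, TEAD, E-box, ETS and GC box were all more frequent in members than in flanks, with intervals of the difference above 0. AP-1 (TGANTCA, with any base at N) was in 14.2% of members and 6.13% of flanks, a difference of 8.11 points (6.79 to 9.48). The forms of this word were not counted apart. TEAD (CATTCC) was in 16.7% and 10.5%, and the E-box CAGCTG, read by basic helix-loop-helix proteins, was in 12.8% and 7.87%. ETS (CCGGAA) was in 2.52% and 1.39%, and the GC box GGGCGG, read by SP and KLF proteins, in 5.31% and 3.29%. The GATA factor word AGATAA was less frequent in members, at 10.3% against 13.5%, a difference of -3.20 points (-4.53 to -1.83). For CTCF (AGGGGGC), homeodomain (TAATTA), TCF (CTTTGAT) and FOX (TGTTTAC) words, and for C/EBP (TTGC and AA with any 2 bases in between) and SOX (AACAAT), the ratio of members to flanks lay between 0.900 and 1.05. The full palindromic NFI word was found in 0 of 3259 members and in 0 flanks. A count of 0 allows a share of members of up to 0.0921% by 3 counts of the total, or 0.113% by the exact interval. Both strands were searched for each word. The mean GC content was 46.2% in the members and 42.7% in the flanks, which can move the share of GC-rich and AT-rich words. With flanks weighted to the GC content of the members, the AP-1 difference was 8.27 points. The other words of this paragraph were not weighted, so the part of GC content in their differences was not tested.

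**Figure D1:**
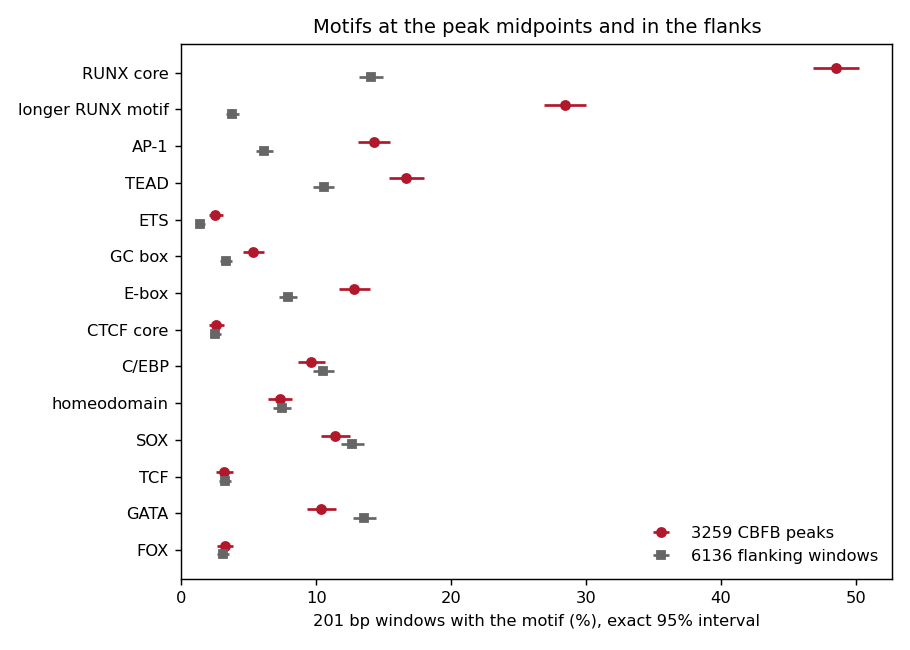
Share of 201 bp windows with each motif, in percent with exact 95% intervals, for the 3259 weaker CBFB-only peaks between genes (circles) and their 6136 flanking windows (squares). The RUNX core stands at 48.5% against 14.0%, the longer RUNX motif at 28.4% against 3.78%, and GATA lies below its flanks.

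The shared CBFB peaks between genes had nearly the same words. AP-1 was in 15.1% of these, and the members differed by -0.813 points (-3.56 to 1.71). TEAD and E-box shares also differed by less than the interval of the difference. The members held the ETS word more often, with a difference of 1.29 points (0.218 to 2.09), and the C/EBP word less often, with a difference of -2.32 points (-4.80 to -0.0960). With 16 motifs compared, an interval that misses 0 in a pair of motifs is a weak observation. Over the whole peak, where wider peaks have more room, AP-1 was in 44.3% of members and the members differed by -6.61 points (-10.3 to -2.92) from the shared peaks, whose median width was 1142 bp against 1044 bp.

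The AP-1 word came as often with the core as without it. It was in 14.5% of the 1581 members with a core and in 13.9% of the 1678 without, a difference of 0.603 points (-1.80 to 3.01). For TEAD, ETS and E-box words the intervals of the difference also held 0. The GC box was rarer in members with the core, at 3.48% against 7.03%, a difference of -3.55 points (-5.10 to -2.03). The core and AP-1 stood together in 230 members, at a median distance of 46.5 bp between their centres, and in 50 of these they were within 20 bp, as in the chr5:105712418-105712455 sequence above. None of the RUNX, AP-1, TEAD, ETS, GC box and E-box words was within 100 bp of the midpoint in 923 members (28.3%).

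Several copies of the core in 1 window were more frequent in members. At least 2 cores were in 398 members (12.2%, 11.1 to 13.4) and in 1.16% of flanks. Windows with 4 or more cores were 22 in number. The 5 with the most cores, 18, 13, 9, 6 and 6, all held repeats of a short unit, and the sequences of 2 of these are given, from GRCh37 on the plus strand, with each core or its complement in capitals.
chr3:194047718-194047918 (+), 18 cores, 24.2 kb downstream of the CPN2 TSS: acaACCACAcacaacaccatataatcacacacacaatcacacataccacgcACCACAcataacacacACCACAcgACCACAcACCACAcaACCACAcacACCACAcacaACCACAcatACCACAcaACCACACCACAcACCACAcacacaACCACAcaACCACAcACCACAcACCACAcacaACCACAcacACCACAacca
chr16:84982918-84983118 (+), 6 cores, 27.9 kb downstream of the ZDHHC7 TSS: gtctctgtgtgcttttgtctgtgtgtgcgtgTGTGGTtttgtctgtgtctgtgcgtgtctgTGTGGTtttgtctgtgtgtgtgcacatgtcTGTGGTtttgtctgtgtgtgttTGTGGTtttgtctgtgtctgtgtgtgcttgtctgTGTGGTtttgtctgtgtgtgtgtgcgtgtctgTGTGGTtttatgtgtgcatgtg
The first of these peaks scored 59.27 and the second 209.59. Copies in such repeats are not separate sites in the sense of the single cores shown above.

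The cores were not centred on the midpoints. This was looked at after the profile of the core along the peaks had been seen. Of 3982 cores within 250 bp of a midpoint, 65.9% (64.4 to 67.4) lay on the side of lower coordinates, and the median position was 51.5 bp below the midpoint. The share of members with a core in a bin of 25 bp was 11.9% from 100 to 75 bp below the midpoint and 4.45% from 75 to 100 bp above it. Cores on the plus strand lay below the midpoint in 68.2% and cores on the minus strand in 63.8%, so the side followed the coordinate and not the strand of the word. The same shift was found in peaks inside genes (66.0%), in shared peaks between genes (67.3%) and in the RUNX2 list (68.9%). AP-1 words lay below the midpoint in 58.0% and TEAD words in 56.0%. A window centred 75 bp lower held the core in 53.6% of members (51.9 to 55.4) in place of 48.5%. The shift was thus present in both deposited lists.

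**Figure D2:**
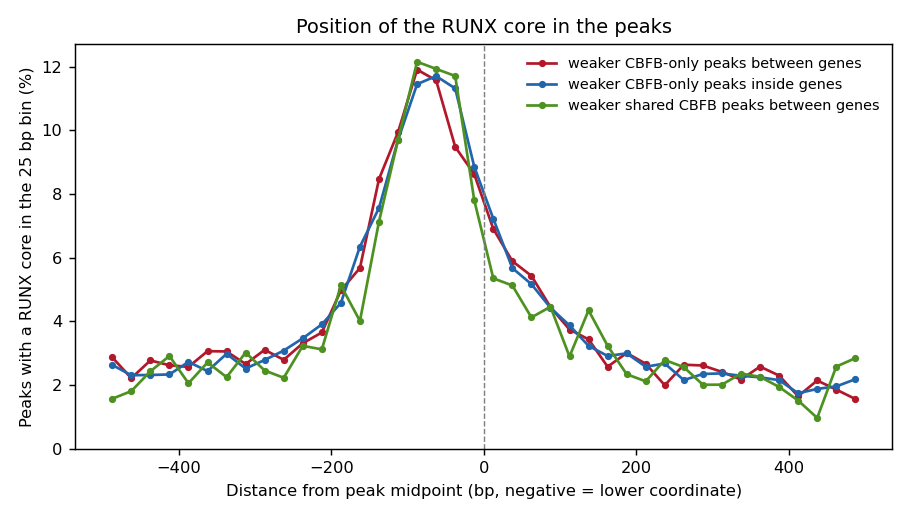
Share of peaks with a RUNX core in each 25 bp bin, in percent, against the distance from the peak midpoint in bp, for the weaker CBFB-only peaks between genes and inside genes and the weaker shared peaks between genes. In all 3 sets the highest bin lies between 100 and 50 bp below the midpoint, and in the members it reaches 11.9%.

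The score of a member said little about its core. In 5 groups of nearly equal size, from the lowest scores to the highest, the core share was 46.8%, 49.8%, 49.2%, 49.4% and 47.4%, and the highest and lowest groups differed by 0.613 points (-4.79 to 6.01). The scores ran from 50.01 to 60.25 in the lowest group and from 144.63 to 277.95 in the highest.

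Width separated the members more than score. In 5 groups by width, from the narrowest to the widest, the core share was 51.4%, 55.7%, 60.6%, 48.7% and 26.2%. The widest group, from 1340 to 5649 bp, differed from the narrowest by -25.1 points (-30.1 to -20.0), and its median score of 121 was above the 60.8 of the narrowest group. The AP-1 share did not follow, at 13.3% and 14.2% (difference -0.877 points, -4.63 to 2.88). In the widest group the cores lay below the midpoint in 45.1% (41.0 to 49.2). The 201 bp window covers a smaller part of a wider peak, and the median width was 806.5 bp in the narrowest group and 1668.5 bp in the widest. A lower share in the window therefore need not mean fewer cores in the peak. When the whole peak was searched in place of the 201 bp window, 84.9% of all members held a core, and 493 members (15.1%) had none. This search was not split by width group.

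The core share also moved with distance. It was 43.8% at 5 to 10 kb from a TSS, 47.5% at 10 to 25 kb, 49.7% at 25 to 50 kb, 52.9% at 50 to 100 kb and 51.7% at 100 to 250 kb. The difference between the last of these bands and the first was 7.94 points (0.0767 to 15.7). The mean GC content fell along the same bands, from 48.6% to 42.7%, and its part in the difference was not tested. Over 250 kb from a TSS there were only 21 members, of which 66.7% held the core.

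CBFB-only peaks could still lie near RUNX2 peaks. A RUNX2 peak lay within 25 kb of the midpoint of 33.6% of members and of 35.1% of the CBFB-only peaks inside genes, a difference of -1.46 points (-3.48 to 0.575). Within 100 kb the shares were 65.5% and 68.4%, a difference of -2.87 points (-4.89 to -0.864). The median distance to a RUNX2 peak was 51.0 kb. The member closest to a RUNX2 peak, chr10:86638688-86640245, was separated from it by 4 bp, while the 5 weaker peaks between genes with the smallest overlaps, which the rule left out, shared 6 to 96 bp with a RUNX2 peak. In all, 38 members had a RUNX2 peak within 1 kb of their midpoint. The core share rose with the distance from RUNX2 peaks, from 43.2% at 1 to 5 kb to 52.3% over 100 kb, a difference of 9.09 points (2.79 to 15.2). The peaks inside genes had the same order, with 44.4% and 57.7%. Between the same bands the median width of the members went from 1128.5 to 998 bp and their mean GC content from 47.2% to 45.4%. The part of width and GC content in this rise was not tested.

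**Figure D3:**
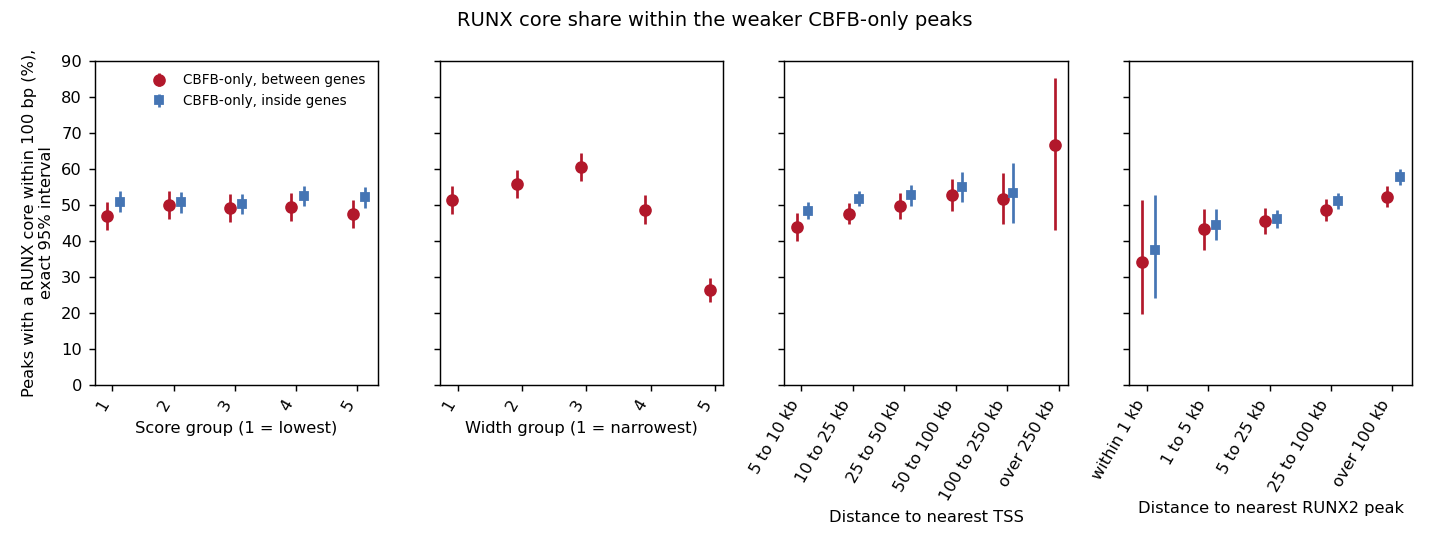
Share of peaks with the RUNX core within 100 bp of the midpoint, in percent with exact 95% intervals, by score group, width group, distance to the nearest TSS and distance to the nearest RUNX2 peak. Circles are the weaker CBFB-only peaks between genes and squares those inside genes. In the peaks between genes the share is between 46.8% and 49.8% over the score groups, falls to 26.2% in the widest group, and rises with distance from RUNX2 peaks to 52.3%.

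The members were unevenly spread over the genome. Between genes, at over 5 kb from a TSS, there were 3.61 members per Mb over all. Chromosome 1 held the most members with 369, followed by chromosome 6 with 282 and chromosome 2 with 260. Per Mb the highest were chromosome 17 with 8.01, chromosome 20 with 7.01 and chromosome 1 with 5.82, and the lowest were chromosome 18 with 1.20, X with 1.46 and chromosome 10 with 2.66. The density of the members followed that of all CBFB peaks, of which they are a part (Spearman's rho 0.774 over 23 chromosomes, as a description).

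The chromosome with the highest density had the lowest core share. On chromosome 17 the core was in 28.6% of 126 members, a difference of -20.7 points from the other chromosomes (-28.1 to -12.1). On chromosome 1 it was in 39.3%, a difference of -10.4 points (-15.6 to -5.01). The median width of the members was 1147 bp on chromosome 17 and 1231 bp on chromosome 1, against 1044 bp over all, and the part of width in these differences was not tested. Chromosomes 20, 18, X and 10 differed from the others by less than their intervals. Over the 23 chromosomes density and core share had a Spearman's rho of -0.50, as a description of points that share 1 library. In 31 windows of 1 Mb, those with over 5 times the median number of CBFB peaks, the core was in 34.3% of 169 members, against 49.3% of the 3090 members elsewhere, a difference of -15.0 points (-21.9 to -7.33). These comparisons of chromosomes and dense windows were chosen after the shares had been seen. Without the dense windows the members exceeded their flanks by 35.4 points, and without chromosomes 6 and 17 by 36.0 points.

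**Figure D4:**
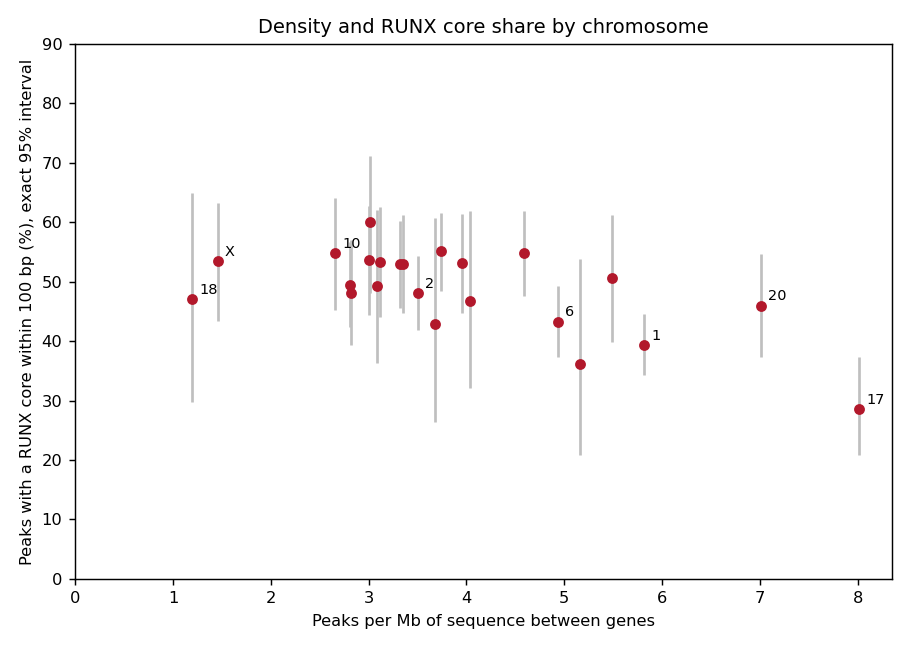
Share of members with the RUNX core within 100 bp of the midpoint, in percent with exact 95% intervals, against members per Mb between genes, for chromosomes 1 to 22 and X, with the chromosomes named in the text labelled. Chromosome 17 stands apart at 8.01 members per Mb and 28.6%.

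Most members stood alone. With members joined when they were at most 12.5 kb apart, 2454 (75.3%) had no other member next to them. The longest chains held 5 members, and both were on chromosome 6 beyond the CDC5L gene, which encodes a splicing factor subunit. The first spanned 24.8 kb at chr6:44419627-44444407, with scores from 50.34 to 98.87 and a core in 2 members. The second spanned 35.4 kb at chr6:44527398-44562829, with scores from 50.84 to 157.34 and a core in 1 member. Of 33004 intervals between genes, 2249 held at least 1 member, and 2 intervals, both on chromosome 6, held 12.

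Each member was assigned to the protein-coding gene with the nearest TSS, which does not show that the gene is regulated from there. Of 20090 protein-coding genes on these chromosomes, 1908 (9.50%) were nearest to at least 1 member and 299 to at least 3. TLE1, a Groucho-type corepressor that RUNX proteins recruit, was nearest to the most members with 17. BCOR, a corepressor of the Polycomb system, followed with 15, CDC5L with 14, and AJAP1, a protein of cell junctions, and BCKDHB, a subunit of branched-chain ketoacid dehydrogenase, with 13 each. The members next to BCOR and CDC5L all lay in dense windows, as did 6 of those next to TLE1. These genes border long stretches without genes: the sequence between genes assigned to TLE1 was 0.897 Mb, against a median of 0.00480 Mb for all protein-coding genes. Per Mb of such sequence TLE1 had 19.0 members and CDC5L 73.0, against 3.61 over all. These genes were named for their number of members, so their high density is not a separate result. Shared CBFB peaks between genes were also assigned to them, 5 weaker and 9 stronger for TLE1 and 5 and 3 for CDC5L.

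The RUNX partners and corepressors were the list with the most members per gene, and 6 of 15 genes had at least 1, against the 9.50% of all protein-coding genes. Their 38 members came to 11.4 per Mb of the sequence between genes assigned to the list, against 3.61 over all. Of the 38, 17 were next to TLE1, 9 next to TLE4 and 6 next to RUNX3, so few loci held most of them. The median gene of this list bordered 0.0507 Mb of such sequence, against 0.00480 Mb for all protein-coding genes. In the other lists this median was 0.0663 to 0.110 Mb, apart from the AP-1 and TEAD genes with 0.00555 Mb, so a share of genes with a member cannot be set against the 9.50% without the sequence they border. The gene lists were also chosen with earlier results of these data known. The 17 members next to TLE1 had scores from 52.63 to 245.58, lay from 50.1 to 948 kb from the TSS, 15 of them on the downstream side, and 7 held the core. TLE4, a close relative, had 9 members with scores from 52.74 to 200.2, of which 5 held the core. TLE4 and TLE1 border the same stretch of chromosome 9. The 6 members downstream of TLE4 and the 15 downstream of TLE1 all lie between these genes, and only the nearest TSS divides them. TLE3 had 4 members, 44.2 to 148 kb upstream, and 3 held the core. RUNX3 had 6 members, all in a dense window. Of the 6, 5 lay 32.7 to 66.0 kb upstream, with scores of 115.76, 72.64, 94.46, 118.73 and 90.87, and the sixth lay 66.6 kb downstream of the TSS with a score of 243.37. The core was in 2 of the RUNX3 members.

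Of the osteoblast transcription factors, 9 of 23 genes were nearest to at least 1 member, with 27 members in all. This was 39.1% of the genes against 9.50% of all protein-coding genes, and 6.44 members per Mb against 3.61 over all. The list was not limited to factors particular to osteoblasts, since it also held SOX9 and ZEB2. SP7, DLX3, DLX5, DLX6, TWIST1 and ATF4 were on the list and had no member. KLF4 had 5 members, all upstream at 76.4 to 559 kb, of which 3 held the core. SOX9, the master factor of cartilage, had 5 members, of which 1 held the core, and 3 of the 5 lay close together 879 to 886 kb upstream. ZEB2, known from epithelial-mesenchymal transition, had 4 members over 1331 kb from its TSS. RUNX2 itself had 3 members, which lay 244, 245 and 254 kb downstream of the TSS with scores of 69.48, 72.03 and 164.64. The first 2 held the core and the strongest did not, and the nearest RUNX2 peaks were 9.58, 11.4 and 19.7 kb away. All 3 lay just past the far end of the gene, which ends at chr6:45632086, and the first of them starts at chr6:45633353.

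Of the genes for BMP, TGF-beta, Wnt and FGF signalling, 16 of 29 (55.2%, against 9.50%) were nearest to at least 1 member, with 37 members or 8.72 per Mb against 3.61. The median gene of this list bordered 0.110 Mb of sequence between genes, against 0.00480 Mb for all protein-coding genes, so the 2 shares are not like for like. FGFR2, a receptor that acts in skeletal growth, had 6 members, 5 of them 128 to 227 kb downstream of the TSS. The 4 with a core had scores of 96.5, 80.89, 94.79 and 103.55, and the 2 without had 165.32 and 64.72. BMP4, a bone morphogenetic protein, had 5 members from 217 kb upstream to 26.8 kb downstream, of which 2 held the core. BMP7 and TGFB2 had 4 each and GDF6 had 3.

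The other lists held fewer members, at 23.1% to 60% of their genes against 9.50%. Bone matrix and mineral genes had 8 members at 5 of 19 genes, or 3.74 per Mb against 3.61 over all. AP-1 and TEAD genes had 4 members at 3 of 13 genes, or 19.4 per Mb over only 0.206 Mb. Osteoclast-coupling and angiogenic genes had 10 members at 6 of 10 genes, or 6.61 per Mb, with 3 of them next to ANGPT1, a growth factor of blood vessels. In all 6 lists the share of members with the core can be read only from small counts, such as 14 of 27 for the osteoblast factors and 18 of 38 for the RUNX partners.

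**Figure D5:**
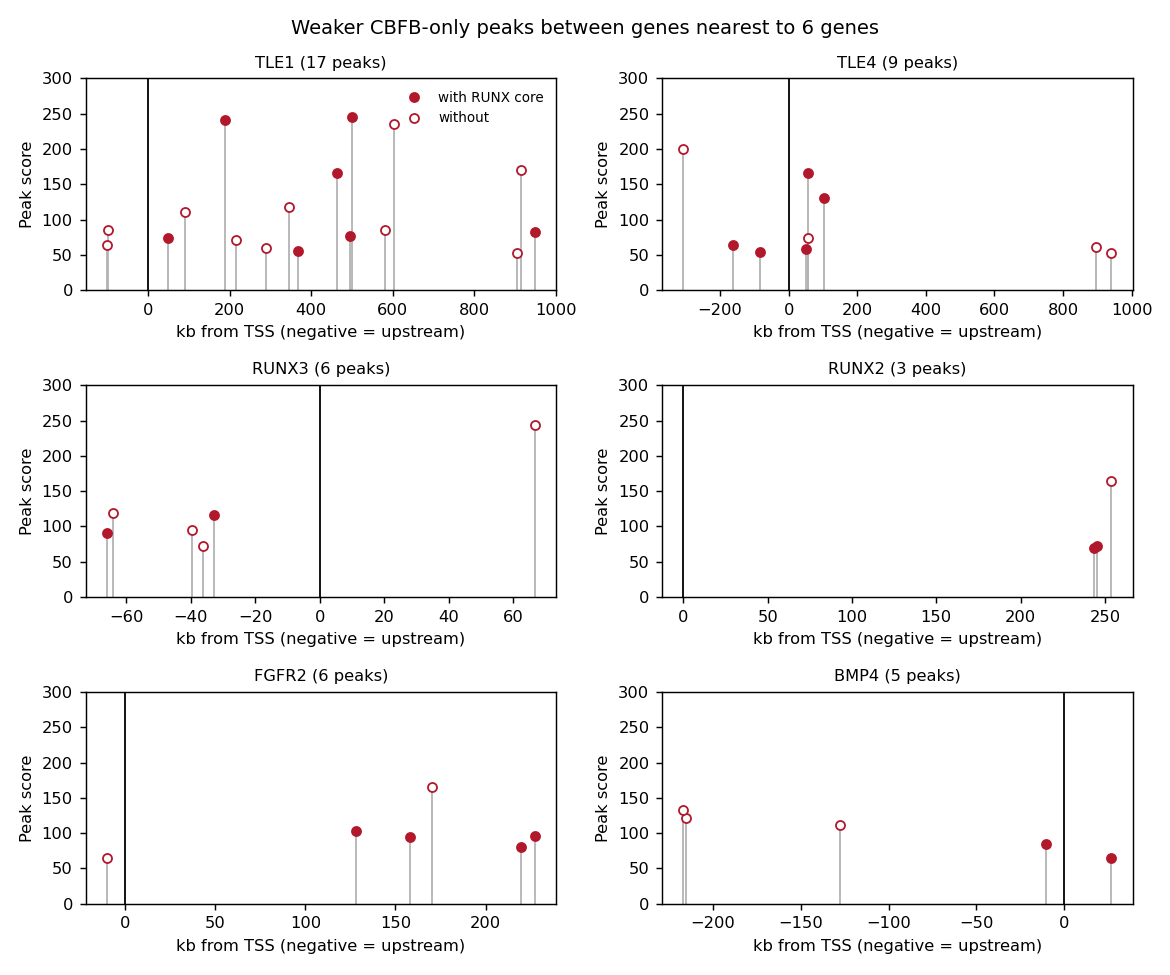
Score of each weaker CBFB-only peak between genes against its distance in kb from the TSS (vertical line, negative upstream) for 6 genes, with filled circles for peaks with the RUNX core within 100 bp of the midpoint and open circles for the others. TLE1 has 17 peaks, of which 15 lie downstream, up to 948 kb away, and 2 upstream, while the 3 peaks of RUNX2 lie together 244 to 254 kb downstream.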

How the data were processed

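ChIP-seq of RUNX2 and CBFB was done in SAOS2 cells. The authors deposited 1 peak list per antibody, with the position and the score of each peak. The submitters' processing notes name CASAVA 1.8.2, MACS 1.4.1 and hg19, while the aligner, the calling limit and whether the input served as control are not given in the sources used here. The input library was not analysed here. The deposited score was read as the MACS peak score.

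Members, comparison sets and gene lists were chosen with earlier results of these data known. Motifs were searched on both strands of GRCh37. Peaks just inside and outside the limits, the highest-scoring peaks, the peaks with the most cores, the genes with the most members and the genes of the lists with at least 3 members are named. Of these genes, 1 is not reported here. The tools were Python 3.11.15, scipy 1.17.1, pandas 2.3.3, numpy 2.4.6 and matplotlib 3.10.9, and the motif step was tested on simulated windows. Alternatives covered the score limit, the overlap, the gene classes, dense windows, chromosomes 6 and 17, the reach and letters of the motif, the flanks and weighting by score or GC content.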

Additional observations from a re-analysis of the deposited data

How the results depend on the processing

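Of 96 values under other settings for 8 results, 80 stayed within the 95% interval of the value in the report or, for the number of members, within 1.5 times, and none of those past 0 turned its direction. With scores under 100 there were 1946 members, and with protein-coding genes alone 5987. With motifs within 50 bp of the midpoint, the core share was 25.7%, the difference from flanks 18.8 points, and that for AP-1 4.16 points. In the whole peak these were 84.9%, 28.9 points and 13.0 points, and the differences from shared peaks were -6.61 points for AP-1 and -2.75 points for the core (-5.12 to -0.149). The shared peaks were wider, and the part of width in these differences was not tested. For TGTGGTT the share was 28.4% and the difference 24.6 points, and for TGTGGT or TGCGGT 53.7% and 38.2 points. A window centred 75 bp below the midpoint, chosen after seeing the data, gave 53.6% and 39.6 points. A RUNX2 peak within 5 kb was more frequent by 0.716 points (-0.565 to 2.04) than inside genes. The difference in core share from peaks inside genes ran from -3.00 to -1.07 points, and its interval held 0 with scores under 200 or under 100, without chromosomes 6 and 17, and for both other forms of the motif. With protein-coding genes alone, AP-1 lay below shared peaks (-2.18 points, -4.23 to -0.246). A repeat-masked search was not run because the reference carries no mask. With 1 library for each antibody, libraries could not be paired. Members and their own flanks were compared as independent groups, and a comparison within each member was not run. The depth is unknown.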
